A study of Mus musculus with 15 samples.

Results

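The genes described here are 6 STAT transcription factors (Stat2, Stat3, Stat4, Stat5a, Stat5b and Stat6), the cytokine oncostatin M (Osm) and the feedback inhibitor Socs3, 8 of 20453 named genes in an RNA-seq table of mouse bone marrow. They were listed by name, and the transcript that stands for each was chosen by its mean count over the libraries, the highest being taken. The list was drawn up with earlier results of these data known, so counts over its members describe them and support nothing further. The 15 libraries with a sample are of sorted C57BL/6 bone marrow, in a study of acute myeloid leukaemia driven by MLL-AF9, a human fusion of the histone methyltransferase MLL to AF9. The 4 groups compared are wtGMP (4 libraries), LTearly (4), LTlate (3) and BMTGMP (3). The labels carry the same text on every sample: cDNA of the human fusion was targeted into A2Lox-cre cells treated with doxycycline, selected clones gave chimaeras, these were backcrossed to C57BL/6, and female double heterozygotes were used. They give gates for granulocyte-macrophage progenitors (GMP) and for long-term haematopoietic stem cells (LT-HSC), after removal of cells bearing Cd5, Cd11b, B220, Gr-1 or Ter119. They do not say which gate a library came from, what LTearly, LTlate and BMTGMP stand for, which promoter drives the fusion, or an age, time or agent for any group, and wtGMP was read as wild-type GMP. LTearly, LTlate and BMTGMP are called the MLL-AF9 groups below. For 1 library the title reads LTearly and the table's column LTlate, so it entered no group, and its values are given apart. Both names number it 1, which another LTearly library also bears and no other LTlate library does. That would leave room for it in LTlate, but no label states its group.

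Levels are in CPM, each library's counts brought to the same total and scaled by the trimmed mean of M-values (TMM). Differences are log2 fold changes ± standard error from edgeR's quasi-likelihood test over 14542 genes, 2-sided, and a gene is said to rise, fall or be called only at a Benjamini-Hochberg adjusted p under 0.05 over all of them. The titles of the MLL-AF9 libraries end in tags that the labels do not explain, and the last part of a tag recurs in LTearly replicate 1 and LTlate replicate 3, in LTearly replicate 3, LTlate replicate 2 and the library without a group, and in BMTGMP replicates 1 and 2. No label states whether libraries come from separate animals or what a shared tag means, and the tags entered no fit, so p-values measure the spread between these samples, which may be technical. Counts on named genes ran from 2469452 to 6978682 in wtGMP, 2696036 to 8695227 in LTearly, 11569325 to 15092528 in LTlate and 4555960 to 10712578 in BMTGMP. Depth therefore moved with group. The summed level of 9 GMP markers was 19750 to 23150 CPM in wtGMP, 8936 to 12300 in BMTGMP, 2624 to 7572 in LTearly and 2791 to 2989 in LTlate. Against wtGMP, 1 of them rose and 6 fell in LTearly, 3 rose and 4 fell in LTlate, and 1 rose and 1 fell in BMTGMP. LT-HSC markers (6 genes) summed to at most 6.37 CPM in wtGMP, 7.19 in LTlate and 24.3 in BMTGMP and to 22.6 to 47.7 in LTearly. Erythroid, B cell and T or NK cell markers summed to under 25 CPM in every library.

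STAT proteins wait in the cytoplasm until a cytokine receptor activates a Janus kinase (JAK), which phosphorylates them. They then pair, enter the nucleus and bind DNA. Oncostatin M is a cytokine of the interleukin-6 family, made by myeloid cells, whose receptors share the chain gp130 (gene Il6st) and act largely through STAT3. Socs3 is a target of STAT3 that binds such receptors and shuts them off. In bone marrow this pathway carries the signals of the granulocyte growth factor G-CSF through STAT3 and of GM-CSF and interleukin-3 through STAT5.

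The promoters of Stat2 and Socs3 are shown as examples of windows that hold a motif known from STAT-driven genes. Windows of 250 bases before the start site were taken from a set of promoter sequences (GRCm38.p6), which had entries for 7 of the 8 genes. The windows of Socs3, Stat5a and Stat5b, and 1 of those of Stat4, lie within their genes' RefSeq spans, so a start here is that of this set. On both strands 3 motifs were searched. They are TTCNNNGAA, the common STAT site, and TTCNNNNGAA, the wider form that STAT6 also binds. The third is GAAANNGAAA, the core of the interferon-stimulated response element bound by complexes of STAT2 and IRF9. Of 32851 such windows in the table, 7.02% hold the common site, 5.85% the wider one and 2.98% the interferon element. Below, the window of Stat2 is chr10:128270248-128270497 on the plus strand and that of Socs3 is chr11:117969367-117969616 on the minus strand, each written 5′ to 3′ in the gene's direction, with the motif in capitals.
Stat2: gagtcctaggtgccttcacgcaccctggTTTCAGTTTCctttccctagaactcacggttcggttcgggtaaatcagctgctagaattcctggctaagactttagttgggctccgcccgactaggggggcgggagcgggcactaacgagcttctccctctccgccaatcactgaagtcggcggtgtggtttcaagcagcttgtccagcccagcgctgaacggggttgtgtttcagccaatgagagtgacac
Socs3: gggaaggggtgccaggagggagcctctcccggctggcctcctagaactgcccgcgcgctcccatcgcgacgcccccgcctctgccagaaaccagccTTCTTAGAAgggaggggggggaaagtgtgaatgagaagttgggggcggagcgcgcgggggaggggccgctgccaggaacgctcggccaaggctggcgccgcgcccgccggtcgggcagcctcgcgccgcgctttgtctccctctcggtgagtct
In Stat2 the capitals mark the interferon element, read from the other strand, 213 bases before the start, and the window also holds 1 match of TTCNNNNGAA. In Socs3 they mark the common STAT site, 146 bases before the start. One of the windows of Stat4, at its other start site, holds GAAANNGAAA, 88 bases before that start. The windows of Stat3, Stat5a, Stat5b and Stat6 hold none of these letters, which says nothing about binding there. A match is a description of sequence, not evidence of a site in use.

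The coding sequences of Stat5a and Stat5b are shown because their likeness bears on how reads were counted. They share an identical run of 324 bases, at coding bases 571 to 894 in both genes, and its first 120 bases (571 to 690) are the following.
Stat5a: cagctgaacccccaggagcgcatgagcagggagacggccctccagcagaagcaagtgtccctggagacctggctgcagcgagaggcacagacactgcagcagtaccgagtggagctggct
Stat5b: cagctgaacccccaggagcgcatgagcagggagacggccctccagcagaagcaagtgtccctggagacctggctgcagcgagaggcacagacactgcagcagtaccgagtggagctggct
Of the 50-base windows of the coding sequence, 26.06% in Stat5a and 26.3% in Stat5b occur in the other gene (GENCODE vM21 transcripts). Over the whole transcript these shares were 15.84% and 12.13%. The authors' counting can split such reads, and the counts of both genes were not whole numbers in 7 libraries. Their separate levels are therefore uncertain to that degree. The other 6 genes shared no such window with another gene of the table and had whole counts throughout. Stat5b, Stat5a and Stat3 lie next to each other in the genome, as do Osm and its relative Lif. Stat2 overlaps Apof and Stat6 overlaps Nab2, and whether the counting used strand is not given in the sources used here.

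**Figure D1:**
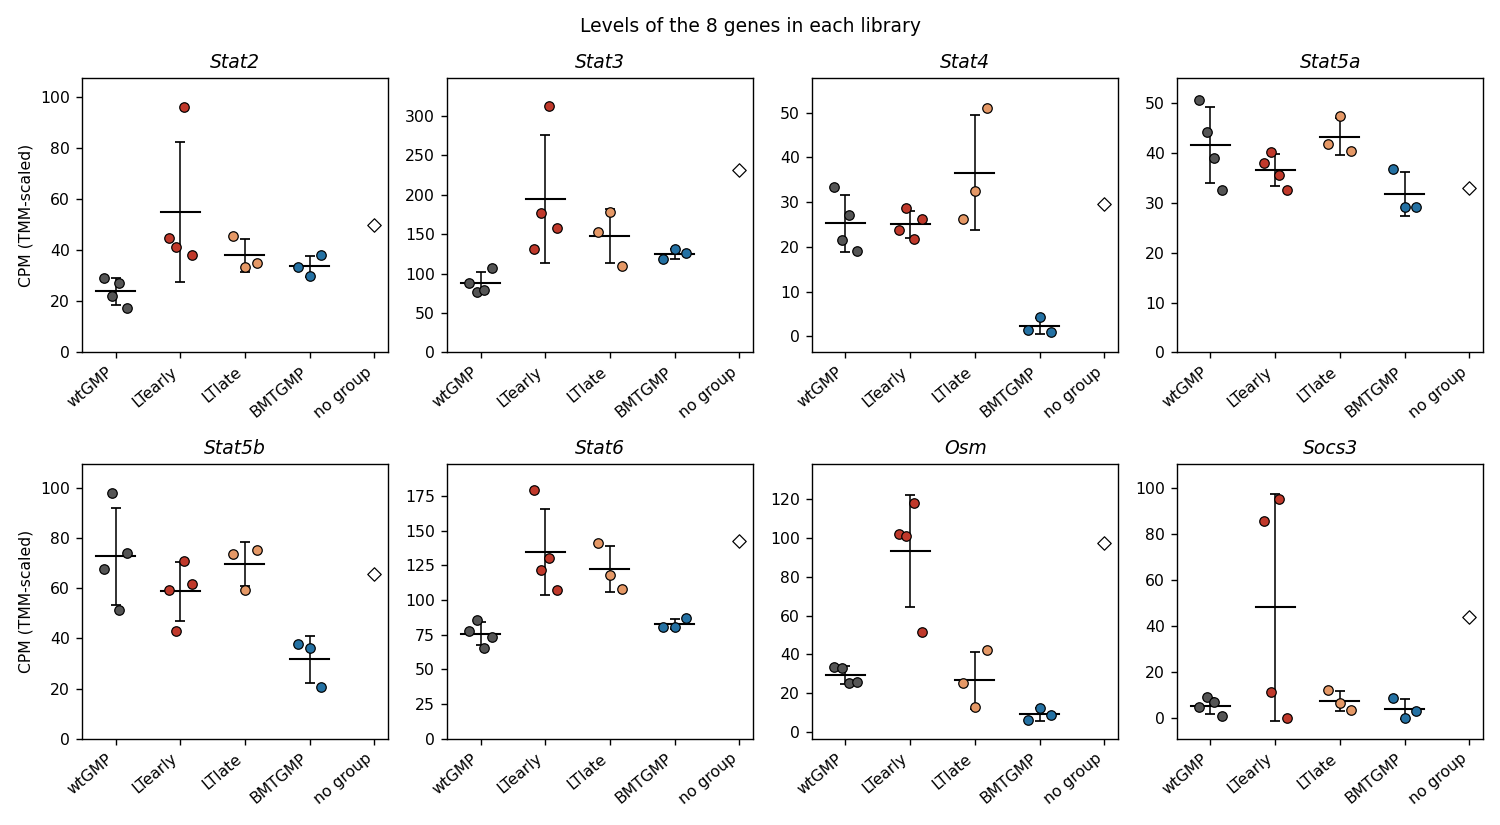
Level of each of the 8 genes in each library (y axis, TMM-scaled CPM) by group, with the mean (line) and SD (bars) and the library without a group as a diamond. Osm separates LTearly from the other groups, Stat4 is low in the BMTGMP libraries, and Socs3 is split within LTearly. In Osm the library without a group (97.4 CPM) lies inside the LTearly range (51.4 to 118).

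All 8 genes passed the filter on low counts, and 16 of the 48 differences over 6 comparisons were called. LTearly against wtGMP had the most, 4 genes higher (Stat2, Stat3, Stat6 and Osm) and 0 lower, where 10.7% of all tested genes were called higher and 9.46% lower. LTlate against wtGMP had Stat3 and Stat6 higher, 2 genes, against 7.65% of all genes called higher and 3.01% lower. BMTGMP against wtGMP went the other way, with 3 genes lower (Stat4, Stat5b and Osm) and 0 higher, against 2.17% lower and 4.35% higher among all genes. The median log2 fold change of the 8 genes was 0.99, 0.50 and -0.40 in these comparisons, against 0.19, 0.01 and 0.06 over all tested genes. These comparisons share the wtGMP libraries and are not independent of each other.

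Between the MLL-AF9 groups, Osm was the only one of the 8 genes called between LTearly and LTlate, where 0.124% of all genes were called higher and 0.138% lower. Stat4, Stat6 and Osm were higher in LTearly than in BMTGMP, 3 genes, against 3.27% of all genes higher and 3.03% lower. Stat4, Stat5b and Osm were higher in LTlate than in BMTGMP, also 3, against 1.64% higher and 0.447% lower. The members' medians were 0.27, 0.80 and 0.72 against 0.07, 0.08 and -0.04 over all genes. The scaling moved the split over all genes in LTearly against BMTGMP from 476 higher and 441 lower to 574 and 330 with median-ratio size factors, and in LTearly against LTlate from 18 and 20 to 17 and 10. That scaling raised the median of all genes in LTearly against LTlate from 0.07 to 0.19, a shift above 0.1. All 16 calls kept their direction under it.

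**Figure D2:**
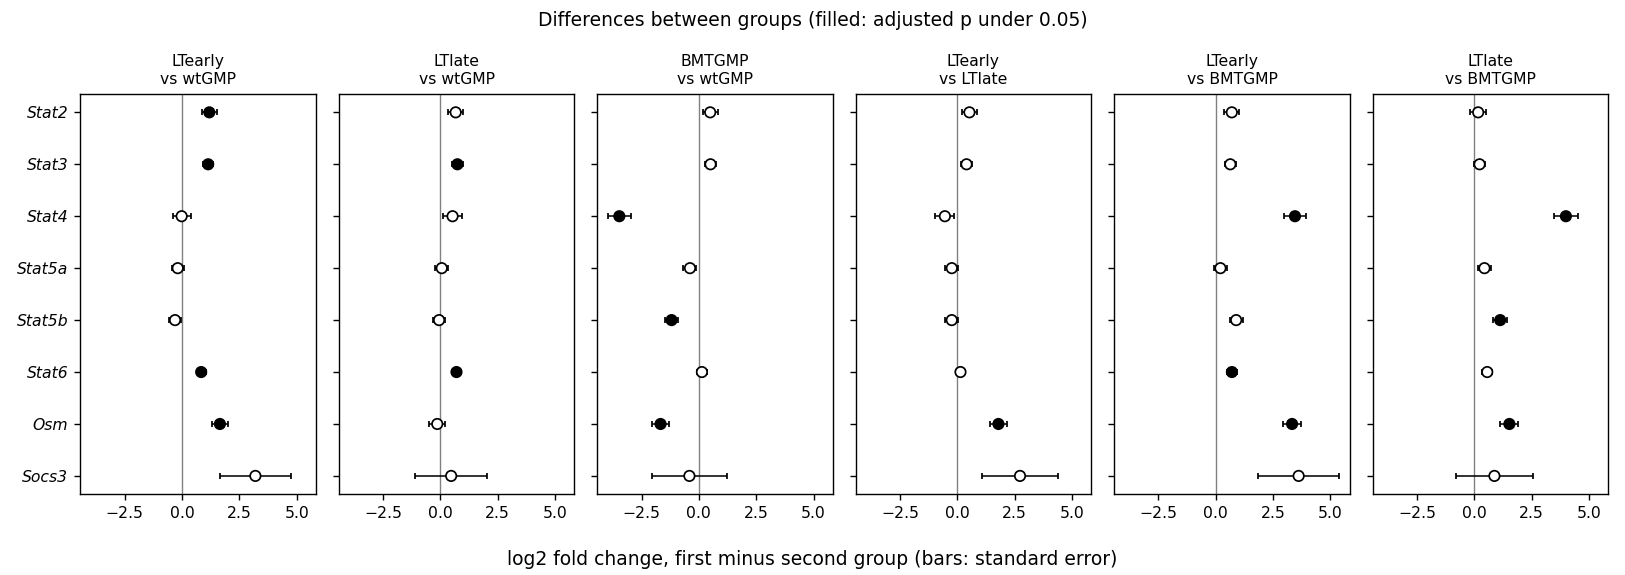
Log2 fold change of the 8 genes (x axis, first minus second group) in the 6 comparisons, with standard errors as bars. Filled points passed the test, 16 in all, of which 9 are against wtGMP.

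Osm, the ligand among these genes, had its highest levels in LTearly and its lowest in BMTGMP. The LTearly libraries gave 102, 101, 118 and 51.4 CPM and the wtGMP libraries 33.7, 33.1, 25.5 and 25.8. LTlate gave 25.2, 12.8 and 42.2 CPM and BMTGMP 6.17, 12.7 and 8.94. Every LTearly library lay above all others with a group, and every BMTGMP library below all others, LTlate replicate 3 included (12.8 against at most 12.7 CPM). Osm rose in LTearly against wtGMP by 1.65 ± 0.34 (adjusted p = 0.000658, 3.14-fold), and it fell in BMTGMP (log2 fold change -1.67 ± 0.38, adjusted p = 0.00523). LTlate overlapped wtGMP (-0.14 ± 0.36, adjusted p = 0.893).

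Between the MLL-AF9 groups Osm was 10-fold higher in LTearly than in BMTGMP (3.33 ± 0.41, adjusted p = 9.44e-06) and 3.46-fold higher in LTearly than in LTlate (1.79 ± 0.37, adjusted p = 0.0319). It was also higher in LTlate than in BMTGMP (1.53 ± 0.39, adjusted p = 0.033). The order of the means was LTearly, wtGMP, LTlate and BMTGMP, and wtGMP and LTlate did not differ beyond their spread. The call between LTearly and LTlate was lost without LTearly replicate 1 (0.0527), 2 (0.0737) or 3 (0.0731), without LTlate replicate 2 (0.0962) or 3 (0.18), and with the library without a group counted as LTlate (0.436). The call between LTlate and BMTGMP was lost without BMTGMP replicate 1 (0.151) or 4 (0.099) and without LTlate replicate 2 (0.0723) or 4 (0.295), all adjusted p. Over all alternatives, the call between LTearly and LTlate passed in 6 of 16 and that between LTlate and BMTGMP in 9 of 15.

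Stat3, which carries G-CSF and interleukin-6 family signals, was higher in LTearly and, by less, in LTlate. Its levels were 87.9, 77.3, 79.5 and 108 CPM in wtGMP and 132, 176, 312 and 158 in LTearly. They were 153, 178 and 110.2 in LTlate and 119, 131 and 126 in BMTGMP. All 10 libraries of the MLL-AF9 groups lay above the highest wtGMP library, and LTearly replicate 3 stood highest. For no gene described here was the share of all tested genes that separate in this way counted. Such separations therefore do not set a gene apart. Stat3 rose by 1.14 ± 0.23 in LTearly (adjusted p = 0.000535) and by 0.74 ± 0.24 in LTlate (adjusted p = 0.0464). In BMTGMP the log2 fold change was 0.51 ± 0.24 (adjusted p = 0.248, not called). Neighbours in the order LTearly, LTlate, BMTGMP, wtGMP did not pass the test. The LTlate call was lost without LTlate replicate 2 (0.146) or 3 (0.244), without wtGMP replicate 1 (0.101), 2 (0.126) or 3 (0.125), and in DESeq2 (0.0615). It was also lost with median-ratio size factors (0.0595), a replicate block (0.116) and summed transcripts (0.0527), all adjusted p. Over all alternatives it passed in 7 of 16.

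Stat2, which acts with IRF9 in the type I interferon response, rose in LTearly. It measured 28.9, 21.9, 27.1 and 17.5 CPM in wtGMP and 44.6, 41.2, 95.9 and 38.3 in LTearly. LTlate gave 45.5, 33.4 and 35.1 and BMTGMP 33.4, 29.9 and 38.0. Again no MLL-AF9 library overlapped wtGMP, and LTearly replicate 3 stood far above the rest of its group. The rise in LTearly was 1.19 ± 0.31 (adjusted p = 0.00662), and without replicate 3 it was 0.82 and no longer called (adjusted p = 0.0576). LTlate (0.66 ± 0.33, adjusted p = 0.217) and BMTGMP (0.49 ± 0.33, adjusted p = 0.446) were not called.

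Of 5 listed genes, the interferon receptor chains and Irf9, 1 rose in LTearly and 4 were not called, with a median of 0.44, where 10.7% of all tested genes were called higher and their median was 0.19. That gene was Ifngr2, a chain of the interferon-gamma receptor (0.91 ± 0.32, adjusted p = 0.0412), whose call held without LTearly replicate 4 and was lost without any other of the 8 libraries (adjusted p = 0.0577 to 0.11).

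Stat6, which acts below the interleukin-4 and interleukin-13 receptors, was higher in LTearly and LTlate and near the wtGMP level in BMTGMP. Levels were 77.9, 85.2, 65.4 and 73.6 CPM in wtGMP and 179, 122, 130.0 and 108 in LTearly. LTlate gave 141, 118 and 108 and BMTGMP 80.7, 80.3 and 87.1. All LTearly and LTlate libraries exceeded all wtGMP and BMTGMP libraries, and BMTGMP overlapped wtGMP. Stat6 rose by 0.83 ± 0.20 in LTearly (adjusted p = 0.00291) and by 0.70 ± 0.21 in LTlate (adjusted p = 0.0292). Against BMTGMP it was higher in LTearly (0.70 ± 0.21, adjusted p = 0.0471), and LTlate was not called (0.57 ± 0.23, adjusted p = 0.274). The LTlate rise was lost without LTlate replicate 2 (0.199) or 3 (0.0768) and without wtGMP replicate 1 (0.0593), 3 (0.102) or 4 (0.077). The difference between LTearly and BMTGMP was lost without BMTGMP replicate 1 (0.164), 2 (0.154) or 4 (0.115) and without LTearly replicate 1 (0.159), 2 (0.0559) or 3 (0.0539), all adjusted p. Over all alternatives, the LTlate rise passed in 9 of 16 and the difference between LTearly and BMTGMP in 5 of 16.

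Of the 3 interleukin-4 and interleukin-13 receptor chains, which feed Stat6, 2 rose in LTearly and 1 was not called. Among all tested genes, 10.7% were called higher there. Il4ra was at 43.8, 31.1, 57.8 and 42.0 CPM in wtGMP and 163, 86.5, 381 and 64.3 in LTearly, a rise of 1.98 ± 0.47 (adjusted p = 0.00893), or 1.29 without LTearly replicate 3. Il13ra1 was at 0.144, 0, 4.71 and 0 CPM in wtGMP and 23.2, 30.8, 90.9 and 14.8 in LTearly, and it rose by 4.92 ± 1.22 (adjusted p = 0.0131), or 4.17 without LTearly replicate 3 and 8.74 without wtGMP replicate 3. In LTlate and BMTGMP edgeR called 0 of the 3, with 1 at an unadjusted p under 0.05 in each. DESeq2 called 1 in each.

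Stat4, best known as the factor of interleukin-12 signalling in lymphocytes, was low in BMTGMP alone. Its levels were 33.4, 21.5, 27.1 and 19.1 CPM in wtGMP and 23.7, 28.7, 21.7 and 26.1 in LTearly. LTlate gave 26.1, 32.6 and 51.0 and BMTGMP 1.40, 4.29 and 1.04. The 3 BMTGMP libraries lay far under the lowest of the other 11, and those 3 other groups overlapped. Stat4 fell in BMTGMP against wtGMP (log2 fold change -3.47 ± 0.49, 11.1-fold lower, adjusted p = 2.35e-05). It was 11-fold higher in LTearly than in BMTGMP (3.45 ± 0.49, adjusted p = 7.56e-05) and 16-fold higher in LTlate (4.0 ± 0.51, adjusted p = 2.51e-05). LTearly against wtGMP came to -0.02 ± 0.39 (adjusted p = 0.985), and LTlate to 0.53 ± 0.41 (adjusted p = 0.481). The 3 calls held in every alternative tried, with adjusted p of at most 0.0123. Without BMTGMP replicate 2, the highest of its group, they came to -4.33, 4.30 and 4.85. Of the 3 interleukin-12 and interleukin-23 receptor chains, edgeR called 0 in each comparison, with 0 at an unadjusted p under 0.05. Markers of T and NK cells, which use Stat4, summed to 0.637 to 5.58 CPM in wtGMP, 5.65 to 19.9 in LTearly, 4.93 to 7.88 in LTlate and 4.78 to 12.5 in BMTGMP (8 genes, with Cd3e, Cd3g, Lck and Klrb1c at 0 in wtGMP, Ncr1 in LTearly and Cd3e in LTlate). Their part in the Stat4 levels was not tested.

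Stat5a and Stat5b carry GM-CSF, interleukin-3 and thrombopoietin signals. Stat5a was called in no comparison. It measured 50.5, 44.2, 39.0 and 32.5 CPM in wtGMP and 38.0, 40.1, 35.5 and 32.6 in LTearly. LTlate gave 41.8, 47.5 and 40.4 and BMTGMP 36.8, 29.2 and 29.1. Its log2 fold changes against wtGMP were -0.19 ± 0.26 in LTearly, 0.06 ± 0.28 in LTlate and -0.39 ± 0.28 in BMTGMP, and none was called (adjusted p = 0.687, 0.96 and 0.496). Missing the threshold does not show that the levels were equal.

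Stat5b was lower in BMTGMP. It measured 67.5, 98.0, 51.1 and 73.9 CPM in wtGMP and 59.3, 42.8, 71.0 and 61.7 in LTearly. LTlate gave 73.6, 59.3 and 75.4 and BMTGMP 37.7, 36.3 and 20.8. All BMTGMP libraries lay below all other libraries, which overlapped among themselves. Stat5b fell in BMTGMP against wtGMP (log2 fold change -1.19 ± 0.28, adjusted p = 0.00769), and without BMTGMP replicate 4, the lowest, the value was -0.97 (adjusted p = 0.0783). It was higher in LTlate than in BMTGMP (1.13 ± 0.30, adjusted p = 0.0388). LTearly against BMTGMP missed the threshold (0.89 ± 0.28, adjusted p = 0.0583) and passed it in DESeq2 (0.0142). The LTlate call was lost without BMTGMP replicate 2 (0.0628) or 4 (0.261) and without LTlate replicate 2 (0.154), 3 (0.0595) or 4 (0.137). Over all alternatives it passed in 8 of 15. Reads split between Stat5a and Stat5b touch both genes' values, and their part in this difference was not tested.

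Socs3, the inhibitor, was low in most libraries and split within LTearly. Its levels were 4.75, 8.76, 6.72 and 0.637 CPM in wtGMP and 85.4, 11.2, 95.2 and 0 in LTearly (replicates 1 to 4). LTlate gave 11.8, 6.38 and 3.36 and BMTGMP 8.69, 0 and 2.70. LTearly replicates 1 and 3 stood above every other library with a group, replicate 2 was within the LTlate range, and replicate 4 had 0 counts, which allows up to 0.353 CPM (3 counts, covering counting error only). BMTGMP replicate 2 also had 0 counts (up to 0.39 CPM). No comparison was called: LTearly against wtGMP came to 3.20 ± 1.56 (adjusted p = 0.181), LTlate to 0.47 ± 1.57 and BMTGMP to -0.41 ± 1.62. Without LTearly replicate 4 the LTearly value was 3.63 and passed (adjusted p = 0.0376). That library was the deepest of its group, with 8695227 counts on named genes.

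Among the other SOCS genes, relatives of Socs3, 6 of 7 passed the filter on low counts. In LTearly, where 10.7% of all tested genes were called higher, 5 were not called and 1 rose. That gene, Socs2, had 0 counts in all wtGMP libraries and 10.4, 12.2, 0 and 2.36 CPM in LTearly. Pooled, this made it at least 32.7-fold higher, against a floor of 3 counts over the wtGMP group (adjusted p = 0.0376). The call held without LTearly replicate 3 or 4 and was lost without any other of the 8 libraries (adjusted p = 0.065 to 0.0888). In LTlate (at least 5.09-fold) and BMTGMP (at least 6.37-fold) Socs2 was not called. These pooled bounds, that of LTearly included, cover counting error only and not the spread between libraries. Single libraries ran from 0 to 1.59 CPM in LTlate and from 0 to 3.38 CPM in BMTGMP. Socs1 did not pass the filter, had 0 counts in wtGMP, and was at most 6.15 CPM in any library. Cish was at most 0.956 CPM in wtGMP and 26.6, 2.87, 1.81 and 0.825 CPM in LTearly, where 1 library set the mean (4.25 ± 1.77, adjusted p = 0.0913). Of the 4 PIAS genes, inhibitors of activated STATs, edgeR called 0 in every comparison, with 1 at an unadjusted p under 0.05 in LTlate against wtGMP.

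**Figure D3:**
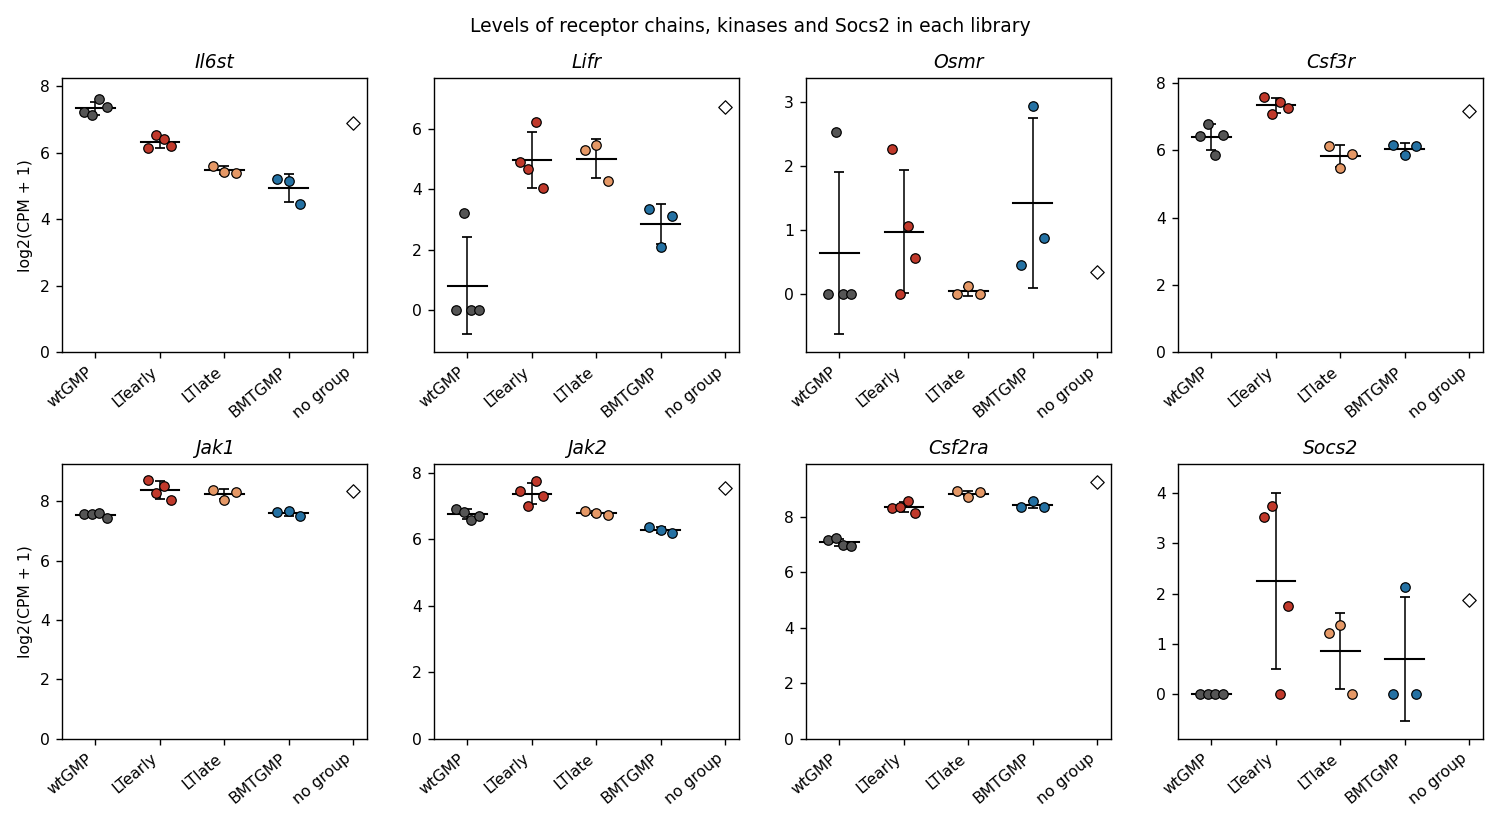
Level of 8 other pathway genes in each library (y axis, log2 of CPM + 1) by group, with mean (line) and SD (bars) of these log values and the library without a group as a diamond. Il6st falls from wtGMP to each MLL-AF9 group, Osmr is near 0 in most libraries, and Csf3r is highest in LTearly.

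The receptor chains through which oncostatin M and its relatives act moved in both directions. Il6st, which encodes gp130, was at 148, 140.2, 194 and 165 CPM in wtGMP and 70.5, 92.0, 85.1 and 72.2 in LTearly. LTlate gave 47.9, 42.3 and 40.8 and BMTGMP 35.9, 34.6 and 21.0. No MLL-AF9 library reached the lowest wtGMP library. Il6st fell in LTearly (log2 fold change -1.02 ± 0.21, adjusted p = 0.00082), LTlate (-1.89 ± 0.24, adjusted p = 2.74e-06) and BMTGMP (-2.40 ± 0.25, adjusted p = 1.41e-07), and it was higher in LTearly than in BMTGMP (1.38 ± 0.24, adjusted p = 0.000648). Osmr, the chain that pairs with gp130 for oncostatin M, had 0 counts in 6 of the 14 libraries and at most 6.63 CPM, and it was called nowhere (LTearly 0.20 ± 2.15, adjusted p = 0.97). Lifr, the chain for leukaemia inhibitory factor, had 0 counts in 3 wtGMP libraries and 8.36 CPM in replicate 2, against 29.2, 24.2, 74.2 and 15.4 CPM in LTearly. It rose there by 4.38 ± 1.28 (adjusted p = 0.0322), a call lost without LTearly replicate 1 (0.0507) or 3 (0.0687) and without wtGMP replicate 3 (0.0651) or 4 (0.0707). Without wtGMP replicate 2, the 1 wtGMP library with counts, all remaining wtGMP libraries were at 0. Il11ra1, the interleukin-11 receptor chain, fell in LTearly (log2 fold change -1.83 ± 0.36, adjusted p = 0.000462) and was lower there than in BMTGMP (-1.95 ± 0.38, adjusted p = 0.00195). Of these 5 receptor chains 1 rose and 2 fell in LTearly, and 1 fell in each of LTlate and BMTGMP. Among all tested genes, 10.7% were called higher and 9.46% lower in LTearly, 3.01% lower in LTlate and 2.17% lower in BMTGMP. Of 6 other ligands of the family, 5 passed the filter and edgeR called 0 in each comparison, with 1 at an unadjusted p under 0.05 in LTlate against wtGMP, LTearly against LTlate and LTlate against BMTGMP.

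Several receptors that use STAT3 or STAT5 in myeloid cells rose in the MLL-AF9 groups. Of the 8 listed, 7 passed the filter, and 4 rose in LTearly, 3 in LTlate and 1 in BMTGMP, with 0 lower, where 10.7%, 7.65% and 4.35% of all tested genes were called higher. One of the 3 in LTlate, Csf2rb, was called in 0 of the 7 fits that left out 1 library (adjusted p up to 0.176). Csf3r, the G-CSF receptor, was at 85.4, 109, 56.9 and 86.3 CPM in wtGMP and 191, 134, 172 and 151 in LTearly. LTlate gave 68.1, 43.2 and 58.7 and BMTGMP 70.2, 57.2 and 69.0. Like Osm, Csf3r was higher in all LTearly libraries than in all others with a group. It rose in LTearly against wtGMP (0.94 ± 0.22, adjusted p = 0.00217) and was higher there than in BMTGMP (1.31 ± 0.24, adjusted p = 0.00119) and in LTlate (1.51 ± 0.24, adjusted p = 0.00602, lost without LTlate replicate 3 at 0.059 and with the library without a group counted as LTlate at 0.194). Csf2ra, the GM-CSF receptor alpha chain, rose in LTearly (1.27 ± 0.16, adjusted p = 9.7e-07), LTlate (1.76 ± 0.17, adjusted p = 2.1e-08) and BMTGMP (1.36 ± 0.17, adjusted p = 2.48e-06). Csf2rb2, the beta chain for interleukin-3, rose in LTearly (1.75 ± 0.34) and LTlate (1.65 ± 0.35).

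Of the 4 Janus kinases, which link these receptors to STATs, Jak1 and Jak2 rose in LTearly and Jak1 in LTlate. Jak1 rose by 0.86 ± 0.17 in LTearly (adjusted p = 0.000348) and by 0.71 ± 0.18 in LTlate (adjusted p = 0.0069, 0.0537 without LTlate replicate 2). Jak2, the kinase of the GM-CSF and interleukin-3 receptors, was at 119, 111, 93.9 and 102 CPM in wtGMP and 172, 126, 212 and 156 in LTearly, a rise of 0.64 ± 0.19 (adjusted p = 0.0149). Both were higher in LTearly than in BMTGMP (Jak1 0.80 ± 0.18, adjusted p = 0.00651, and Jak2 1.11 ± 0.21, adjusted p = 0.00135). Phosphatases that act on JAKs or STATs rose too, 3 of 5 in LTearly and in LTlate and 1 in BMTGMP. For kinases and phosphatases alike, the share of all tested genes called higher was 10.7% in LTearly, 7.65% in LTlate and 4.35% in BMTGMP. One of the 3 phosphatases in LTlate, Ptpn1 (adjusted p = 0.0493), was called in 1 of the 7 fits that left out 1 library (adjusted p up to 0.23). The CD45 gene Ptprc rose by 1.78 ± 0.17 in LTearly, 1.57 ± 0.18 in LTlate and 1.07 ± 0.18 in BMTGMP, and the SHP-1 gene Ptpn6 by 1.02 ± 0.16 in LTearly and 1.07 ± 0.17 in LTlate.

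Genes known as STAT targets moved in both directions. Of 12, all passed the filter, and in LTearly 4 rose, 2 fell and 6 were not called (median 1.32 against 0.19 over all genes, of which 10.7% were called higher and 9.46% lower). Without LTearly replicate 1 or 3 or without wtGMP replicate 4, 2 rose there. The survival gene Mcl1 rose there by 1.65 ± 0.26 (adjusted p = 0.000161) and Bcl6, a repressor, by 3.25 ± 0.80 (adjusted p = 0.00657), or 4.26 without wtGMP replicate 2. The cyclin gene Ccnd2 fell in LTearly (log2 fold change -2.96 ± 0.59), LTlate (-3.62 ± 0.68) and BMTGMP (-5.77 ± 0.78, adjusted p = 0.000205), and Myc fell in LTearly (-1.30 ± 0.27, adjusted p = 0.000666). In LTlate 2 rose (Mcl1 and Bcl6) and 1 fell, and in BMTGMP 1 fell (2 without BMTGMP replicate 1). Without LTlate replicate 2 neither rise in LTlate was called (adjusted p = 0.076 for Mcl1 and 0.0943 for Bcl6), nor without wtGMP replicate 4 (0.0665 and 0.053), and 1 of them was called without LTlate replicate 4 or wtGMP replicate 1, 2 or 3. These genes have many other regulators. Over the 62 listed pathway genes, 59 passed the filter: 18 rose and 4 fell in LTearly, 9 and 2 in LTlate, and 2 and 2 in BMTGMP. Over all tested genes these shares were 10.7% and 9.46%, 7.65% and 3.01%, and 4.35% and 2.17%. The 9 pathway genes higher in LTlate became 4 without LTlate replicate 2 and 5 without wtGMP replicate 4, and BMTGMP had 4 lower without BMTGMP replicate 1 and 4 higher without BMTGMP replicate 4. Between the MLL-AF9 groups, 9 were higher and 1 lower in LTearly than in BMTGMP (5 and 1 without BMTGMP replicate 2), 1 was higher in LTearly than in LTlate (0 without LTlate replicate 3 and 2 without LTearly replicate 4), and edgeR called 0 between LTlate and BMTGMP, with 12 at an unadjusted p under 0.05. DESeq2 called 3 there.

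**Figure D4:**
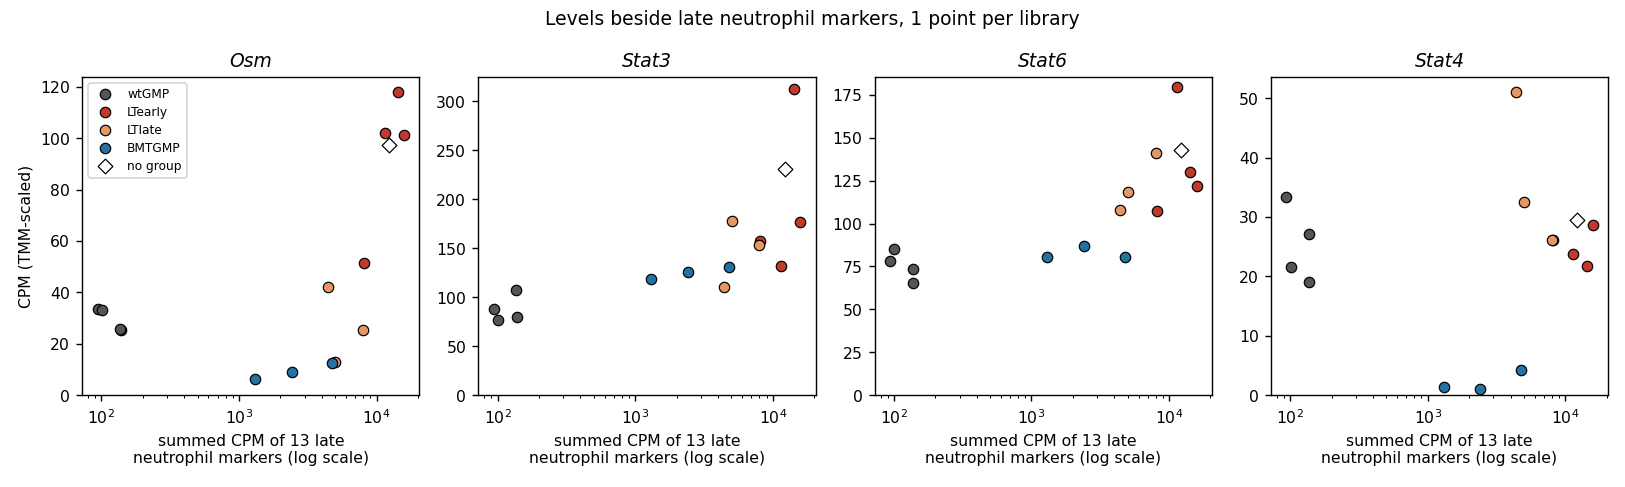
Levels of Osm, Stat3, Stat6 and Stat4 (y axis, CPM) beside the summed level of 13 late neutrophil markers (x axis, log scale), 1 point per library. Libraries of wtGMP sit at 93.8 to 138 on the x axis and LTearly libraries at 8134 to 15850, and Stat4 is low in the BMTGMP libraries, which lie between.

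Late neutrophil markers moved with several of these genes. Their sum over 13 genes was 93.8 to 138 CPM in wtGMP, 8134 to 15850 in LTearly, 4411 to 7982 in LTlate and 1308 to 4768 in BMTGMP, with no marker at 0 in any group. Of the 13, 13 rose in LTearly, 12 in LTlate and 10 in BMTGMP against wtGMP. LTearly, the group with the highest sums, also had the highest mean of Osm, Stat2, Stat3, Stat6 and Socs3. In BMTGMP the marker sum was above every wtGMP library while Osm, Stat4 and Stat5b were below. Monocyte and macrophage markers (9 genes) summed to 394 to 492 CPM in wtGMP, 426 to 1174 in LTearly, 575 to 680.3 in LTlate and 193 to 404.5 in BMTGMP (C1qb at 0 in wtGMP and BMTGMP). Eosinophil, basophil and mast cell markers (8 genes) summed to 156 to 281 in wtGMP, 8.31 to 39.1 in LTearly, 93.9 to 318 in LTlate and 6.44 to 8.51 in BMTGMP. The part of any of these cells in the levels of the STAT genes, Osm and Socs3 was not tested. In bulk samples, fewer cells of a type and less RNA per cell cannot be told apart.

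The groups stood in a different order from gene to gene. By their means, Stat2, Stat3 and Stat6 ran from LTearly through LTlate and BMTGMP to wtGMP, with no neighbours in that order past the test. Stat4 and Stat5a ran from LTlate through wtGMP and LTearly to BMTGMP, and only the last step of Stat4 passed. Stat5b ran from wtGMP through LTlate and LTearly to BMTGMP, and Socs3 from LTearly through LTlate and wtGMP to BMTGMP, with no neighbours past the test.

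Genes whose levels over the 14 libraries were most like a member were sought among 9791 tested genes averaging 5 CPM or more, by Pearson's r of log2 CPM, as a description without a p. The points share their 4 groups, so a difference between groups alone can give a high r. Stat2 lay closest to Samhd1 (r = 0.955), Zbp1 (0.93) and Hsd17b11 (0.926), of which Zbp1 is an interferon-induced sensor of nucleic acids. Stat3 lay closest to Flot2 (0.91), Kif3b (0.905) and the neutrophil collagenase gene Mmp8 (0.905), which is in the late neutrophil list. Stat4 lay closest to genes that include Erg (0.949), which encodes a transcription factor of stem cells, and Tiam1 (0.939). For Stat6 the nearest were Sh2d3c (0.969), Cmip (0.956) and the retinoic acid receptor gene Rara (0.949), and for Osm Rnf144a (0.945), Cyfip2 (0.894) and Zfp516 (0.886). Stat5b had Lrrc8c (0.915), Kcnn4 (0.91) and Abhd2 (0.907), and Stat5a had Sh3bgrl (0.897), Trit1 (0.798) and Rbm38 (0.796). Socs3 had Rnf19b (0.869), Nfil3 (0.855) and Mrpl52 (0.853).

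**Figure D5:**
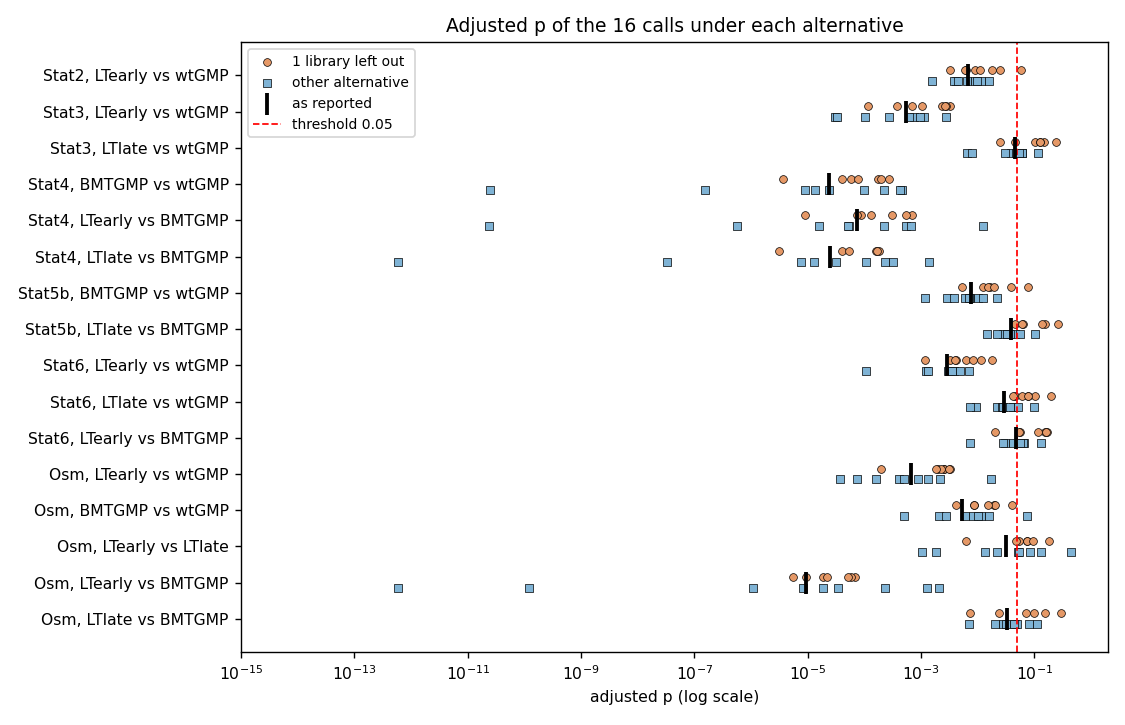
Adjusted p (x axis, log scale) of each of the 16 calls as reported (bar), with 1 library left out (circles) and under the other alternatives (squares), with the threshold of 0.05 as a dashed line. Stat4 in its 3 comparisons, Stat3, Stat6 and Osm in LTearly against wtGMP, and Osm in LTearly against BMTGMP stay left of the line throughout.

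Of the 16 calls, 7 passed under every alternative tried and 8 in every fit that left out 1 library of the groups compared. The 7 are Stat3, Stat6 and Osm in LTearly against wtGMP, the 3 calls of Stat4, and Osm in LTearly against BMTGMP. All 16 kept their direction in every alternative. Osm in BMTGMP against wtGMP was lost only with the library without a group counted as LTlate (adjusted p = 0.075).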

How the data were processed

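RNA of sorted mouse bone marrow was sequenced on an Illumina HiSeq after a strand-keeping low-input kit, per the labels' protocols. The authors deposited 1 table of 28847 RefSeq transcripts and 16 columns, whose unit is an expected count: 13.75% of values are not whole numbers (tolerance 1e-06). Reads were placed on mm9 and at most 100 hits were kept for each, per the file headers; the submitters' processing notes name Bowtie 0.9.9.1. The strand setting of the counting is not given in the sources used here. The table's totals ran from 3487772 to 21462900. Another 1 column matches no sample and was not used.

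Transcripts were matched to symbols (26092, of which 25973 in the RefSeq gene table and 119 in GENCODE vM21). Those without a symbol held 3.5% to 4.2% of counts and were left out. For each gene the transcript of highest mean count was kept and rounded, leaving 2469452 to 15092528 counts per library. The 14 libraries with a group entered 1 fit of edgeR 4.0.16 (R 4.3.3) with TMM scaling, filterByExpr and the robust quasi-likelihood test, with a common biological coefficient of variation of 0.748. Dividing a log2 fold change by the root of its F gave the standard error. Of 105 pairs of libraries, 0 had identical counts.

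The members and lists were chosen with earlier results of these data known. From each pathway list, up to 4 called genes with the smallest adjusted p in a comparison are named, with Jak2, Csf3r, Osmr, Il6st, Cish, Socs1 and Socs2 always, and the 3 genes most like each member. Some results that this rule takes are not reported here. Alternatives were DESeq2 1.42.0, median-ratio size factors, no low-count filter, a replicate block, the library without a group counted as LTearly or LTlate, only both groups compared, summed transcripts, thinning to the lowest library total, and each library left out in turn.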

Additional observations from a re-analysis of the deposited data

Results flagged for a closer look

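Stat2 in LTearly replicate 3, at 95.9 CPM, stood apart from the other 3 libraries of its group: its gap to the next library was 0.89 of the group's whole range, above the 95% limit of Dixon's test for 4 samples. Of 16 such groups checked (8 genes in wtGMP and LTearly), this was the 1 past the limit, and chance alone gives about 1 in 20. The same library had the highest Stat3 (312 CPM), Osm (118) and Socs3 (95.2) of its group, with gaps that were under the limit.

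The library whose title and column name disagree entered no comparison. It lay above all 4 wtGMP libraries in Stat2 (49.7 CPM), Stat3 (231), Stat6 (143), Osm (97.4) and Socs3 (43.7). The share of all genes in which it did so was not counted, so this does not set these genes apart. These values were not tested.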

How the results depend on the processing

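Of the 16 calls among the 8 genes, 16 were kept with the library without a group counted as LTearly, 15 in DESeq2 and 15 with median-ratio size factors, 14 without a low-count filter, 13 with only both groups compared, thinned to the lowest total or with that library counted as LTlate, and 12 with transcripts summed. Deviations from group means correlated at -0.162 to 0.115 between same-numbered libraries (1 of 18 above 0.1) and at -0.158 to 0.145 between differently numbered ones. Replicate numbers thus gave no sign of pairing, though such correlations cannot exclude it. With the replicate number as a block, 12 calls were kept. In LTearly against LTlate the 1 called gene became 0 under the replicate block, summed transcripts, thinning, only both groups, and the library without a group counted as LTlate, and 0 to 1 with 1 library left out. In LTlate against wtGMP the 2 became 1 under DESeq2, median-ratio size factors, no filter, the block, thinning and summed transcripts, and 0 to 2 with 1 library left out. In LTlate against BMTGMP the 3 became 1 to 2 with 1 library left out. Over all genes, LTearly against LTlate had 38 called, 256 in DESeq2 (178 higher, 78 lower), 141 without a filter, 86 and 0 with that library counted as LTearly or LTlate, 21 with summed transcripts and 4 (without LTlate replicate 4, with 10 and 25 without LTlate replicates 3 and 2 and 22 without LTearly replicate 2) to 198 (without LTearly replicate 4) with 1 left out. LTearly against BMTGMP had 917, 1494 in DESeq2 (963 higher, 531 lower), 407 with only both groups and 583 (without BMTGMP replicate 1) to 1269 with 1 left out. BMTGMP against wtGMP had 947 and 1423 in DESeq2. LTlate against BMTGMP had 303, 569 in DESeq2 (378 higher, 191 lower) and 155 (without LTlate replicate 2, and 177 without BMTGMP replicate 4) to 308 with 1 left out. LTlate against wtGMP had 1549, 2486 with only both groups, 2106 in DESeq2 (1278 higher, 828 lower) and 921 (without LTlate replicate 2) to 1333 with 1 left out. Pathway genes higher in LTearly than in BMTGMP were 9, 15 in DESeq2 and 5 with only both groups, and those higher in BMTGMP than in wtGMP were 2, 4 in DESeq2 or thinned and 5 with only both groups. The cause of these moves was not tested. The other transcripts of Stat3, Stat5a and Stat5b had mean counts at 0.948 to 0.995 of the one used. Their sums may therefore hold the same reads more than once. Stat2, Stat4, Stat6, Osm and Socs3 have 1 transcript each, so summing left their own counts unchanged.

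Some differences that were not called changed sign. In LTearly against wtGMP, Stat4 went from -0.02 to 0.07 in DESeq2 and with median-ratio size factors (0.071), 0.025 with the library without a group counted as LTearly, 0.034 with only both groups, 0.155 thinned, 0.024 summed, and -0.10 to 0.18 with 1 left out. In LTlate against wtGMP, Stat5a went from 0.06 to -0.033 with that library counted as LTlate, -0.019 thinned and -0.059 to 0.15 with 1 left out, Stat5b from -0.06 to -0.21 to 0.10 and Socs3 from 0.47 to -0.094 to 0.81 with 1 left out. There Osm went from -0.14 to 0.58 with that library counted as LTlate and -0.63 to 0.20 with 1 left out. With 1 left out, Socs3 in BMTGMP against wtGMP ran -2.03 to 0.17 and Stat6 in LTearly against LTlate -0.032 to 0.25. Counts of Socs3 were 0 to 360 per library, and a count of 0 in LTearly replicate 4 allows up to 0.353 CPM.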

Other observations

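In the other 3 genes the library without a group measured 29.5 CPM (Stat4), 33.0 (Stat5a) and 65.6 (Stat5b), inside the range of the wtGMP libraries in each case. Its Il6st level was 118 CPM, its Lifr level 104 and its Csf3r level 141. Its late neutrophil markers summed to 12210 CPM and its LT-HSC markers to 103 CPM, with Procr at 0.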
